A study of Arabidopsis thaliana with 4 samples.

Results

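CES (CESTA, also called HAF, locus AT1G25330) is a gene on chromosome 1 that encodes a basic helix-loop-helix (bHLH) transcription factor. It was read through its 1 probe set among the 22810 probe sets of each array, and its level was followed over all 4 arrays. The arrays were single-colour Affymetrix ATH1 arrays of RNA from whole Arabidopsis thaliana plants, 14 days old, grown upright on agar with sucrose after 2 days in the cold, at 24 °C with 16 h of light and 8 h of dark. One array held the Columbia-0 wild type, 1 held a line that the labels name a CESTA enhancer trap and also tag as a gene knockout, and 2 held a T-DNA line named as a CESTA knockout. All 4 carry the same listed background, Col-0, no group has an added agent, and each mutant group is 1 line. Whether the 2 knockout samples were grown apart, and how many plants made up a sample, is not stated in the labels, so p-values measure a spread that may be technical.

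Transcription factors of the bHLH family bind DNA as dimers, through a basic region that recognises short E-box elements, and the helix-loop-helix region holds the partners together. CES acts in the response to brassinosteroids, the steroid hormones of plants, and binds elements in the promoters of hormone synthesis genes. It is also known for a role in the female reproductive tract, where it works together with its relatives BEE1 and BEE3. An enhancer trap is an inserted DNA with a reporter gene that reads nearby regulatory elements, and a T-DNA knockout carries an insertion meant to stop a gene from giving functional transcript.

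CES was bright on the enhancer-trap array and lay at background on the other arrays. Its signal, a MAS5 intensity on a linear scale that the authors had already brought to a common level between arrays, was 4124 in the enhancer trap. It was 0.533 in the wild type, 7.29 in knockout replicate 1 and 5.35 in knockout replicate 2. The wild-type and knockout readings do not come near that of the enhancer trap. The knockout mean was 6.32 ± 1.37 (SD, n = 2), and the wild type and the enhancer trap have no replicate. In bulk RNA, more cells with CES transcript and more transcript per cell cannot be told apart.

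Position within an array needs no scaling between arrays. From the top, CES was number 45 of 22810 in the enhancer trap, above 99.8% of all probe sets. It was number 17006 in knockout replicate 1, number 18282 in knockout replicate 2 and number 21723 in the wild type, above 25.4%, 19.9% and 4.77% of probe sets. The median signal of an array lay between 38.5 and 39.6, so CES stood 105.6 times above it in the enhancer trap and well below it elsewhere. Signals of different probe sets also depend on how well their probes bind, so a rank orders signals, not numbers of transcripts.

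Background was read from the 27 Bacillus control probe sets, which detect bacterial genes with no target in the plant. Their signals ran from 0.140 to 10.6 on the wild-type array, and the highest was 7.57 in the enhancer trap, 7.07 in knockout replicate 1 and 7.20 in knockout replicate 2. The highest over all arrays, 10.6, was taken as the background level. In the wild type 18 of the 27 controls were brighter than CES, and in knockout replicate 2 there were 3. In knockout replicate 1 there were 0, and CES exceeded the brightest control of its own array by 0.220 signal units while staying under 10.6. In the enhancer trap 0 were brighter as well, with CES far above them all.

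**Figure D1:**
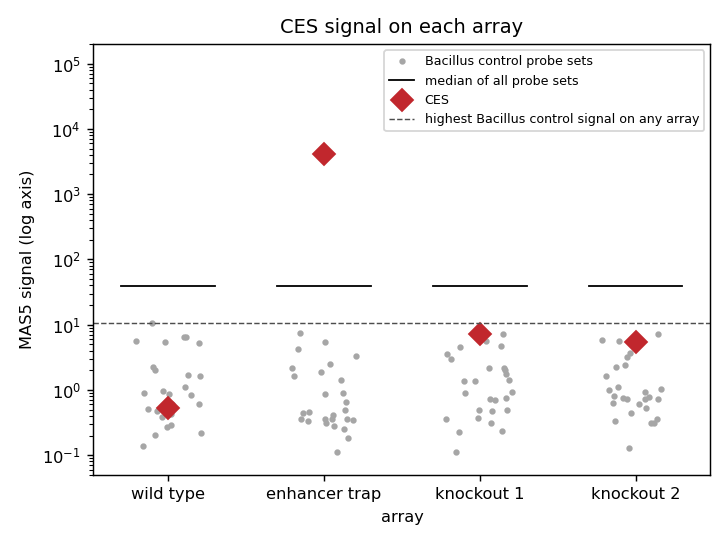
MAS5 signal of CES (diamonds, log axis) on each of the 4 arrays, with the 27 Bacillus control probe sets as grey points, the median of all probe sets as a bar and the highest control signal on any array (10.6) as a dashed line. CES reads 4124 on the enhancer-trap array and between 0.533 and 7.29 on the others, among the controls.

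The order of the levels was therefore the enhancer trap, then a group of 3 arrays that background does not separate. Against the level of 10.6, CES in the enhancer trap was at least 388-fold higher than in the wild type and at least 388-fold higher than in the knockout. Against knockout replicates 1 and 2 taken singly, with the higher of the array's own brightest control and its own CES reading as the level, the bound was 565-fold and 573-fold, an alternative chosen after seeing the data. On the scale of log2(signal + 1), CES differed by 11.39 between the enhancer trap and the wild type (SE 0.420, adjusted p = 1.76e-24 by limma) and by -9.15 between the knockout and the enhancer trap (SE 0.364, adjusted p = 1.23e-23 by limma). These fitted differences rest on readings at background and on the pseudocount, so the bound, not the fitted value, gives the size. CES met the signal filter described below only through the enhancer-trap array, so its high reading there chose it for the test. Without the filter both differences still passed, at a far larger adjusted p. As fitted, both differences were the largest of all 22746 probe sets that are not controls. The next in each comparison were -6.66, lower in the enhancer trap than in the wild type, and -6.54, lower in the enhancer trap than in the knockout.

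The spread in these tests comes from the 2 knockout arrays alone, and the fit takes the same spread for the 2 unreplicated arrays. An exact permutation test of 1 array against 3 cannot give a two-sided p under 0.25, and 0.25 is what CES gives. In the enhancer trap against the wild type 4.29% of the 13648 tested probe sets passed at an adjusted p under 0.05, and 5.99% in the knockout against the enhancer trap.

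CES also passed this test in the knockout against the wild type, although both sides lie at background. Its log2 difference, knockout minus wild type, was 2.24 (SE 0.364, adjusted p = 0.000570 by limma), where 0.183% of tested probe sets passed. No fold is given, since neither side rises above 10.6. A filter kept probe sets with a mean log2 signal over the 4 arrays of at least 4.576, and CES entered at 4.587 through the enhancer-trap array, its mean over the other 3 arrays being 2.11. Of the 5542 probe sets at or under background in the wild type and both knockout arrays, CES was the 1 that the filter let in. Of the other 5541, 47 (0.848%) lay at least as far above the wild type in both knockout arrays, and 72 (1.30%) lay at least as far below it. The call was lost without the filter (adjusted p = 0.908), with log2(signal + 16) (adjusted p = 0.836) and with arrays centred on their medians (adjusted p = 0.118).

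For the labels, these readings differ in what they can say. The array labelled enhancer trap holds abundant CES signal, so its second tag as a gene knockout does not mean an absence of signal at this probe set. Whether the signal comes from intact transcript was not tested. The library labelled knockout cannot be checked by CES, because the wild type shows no CES signal above background that could be lost. Where the probes lie relative to either insertion was not analysed here. Markers of both organs were above background, 2 of 4 listed for each being measured, with LHCB4.1 and LHCB4.2, light-harvesting genes of green tissue, at 4924 to 5825 and the root gene PYK10 at 3308 to 4112 over the 4 arrays. The root-hair expansin gene EXPA7 read 44.7 in the wild type, 112.8 in the enhancer trap, and 59.3 and 83.1 in the knockout. EXPA7 was higher in the enhancer trap than in the wild type by 1.31 (SE 0.284, adjusted p = 0.00191 by limma), a call lost without the filter (adjusted p = 0.159). The call was also lost without the intensity trend and with the wild type and knockout as 1 group. The part of EXPA7 in the other results was not tested.

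How often an array leaves background by itself was counted next. In the enhancer trap 192 of the 5542 probe sets dark in the other 3 arrays were above 10.6, or 3.46%. The same count was 312 of 5662 for the wild type, 140 of 5490 for knockout replicate 1 and 369 of 5719 for knockout replicate 2, or 5.51%, 2.55% and 6.45%. The enhancer trap was thus within the range of the other arrays by number. By size it was not, since the brightest such probe set read 25.9 in the wild type, 22.1 in knockout replicate 1 and 22.6 in knockout replicate 2. In the enhancer trap 9 probe sets were above 25.9, and CES was the brightest of them.

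The next of the 9 after CES was a probe set without a single listed gene, at 166.7. AT1G53080 read 90.6 in the enhancer trap and 1.89, 6.76 and 1.47 in the wild type and knockout replicates 1 and 2. AT1G14930 read 54.4 there and between 0.840 and 1.84 elsewhere. AT1G48800 read 47.4, AT1G58025 46.5 and AT2G29170 43.4, with 0.458 to 7.54 on the other arrays. These 5 lie under the signal filter, and since their pattern chose them they are described without a test. The place of CES in this count depends on the background level. With the 95th percentile of the control signals, 6.24, CES at 7.29 in knockout replicate 1 no longer counts as dark there and drops out, and the brightest such probe set of the enhancer trap then reads 54.4.

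**Figure D2:**
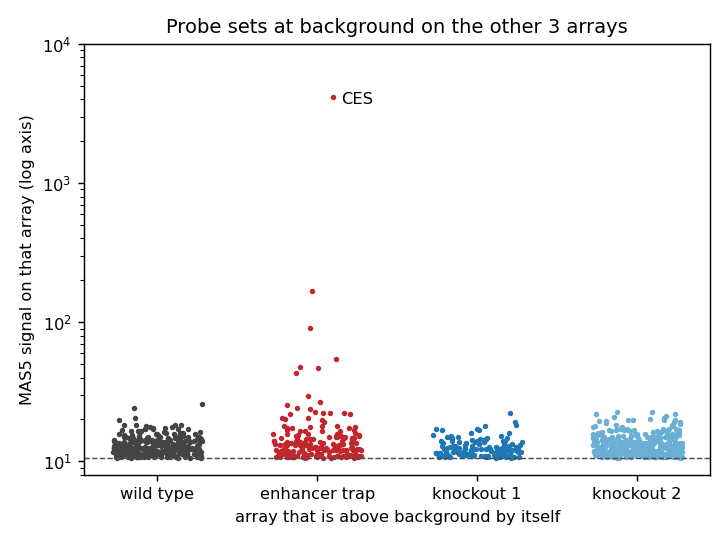
Each point is a probe set at or under background (10.6, dashed line) on the 3 other arrays and above it on the array named on the horizontal axis, with its MAS5 signal there on a log axis. Signals end at 22.1 to 25.9 on the wild-type and knockout arrays, while 9 points lie higher on the enhancer-trap array, CES at 4124 being the brightest.

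The genes beside CES on chromosome 1 were examined next, taking the 5 nearest measured genes on each side in the gene order of assembly TAIR10.1. None of the 10 went from background to a signal near that of CES. AT1G25320, which directly precedes CES, read 79.4 in the wild type, 55.3 in the enhancer trap, and 82.9 and 73.4 in the knockout arrays. It was lowest on the array where CES was highest, with a difference from the wild type of -0.51 (SE 0.274, adjusted p = 0.443 by limma). The nearest measured gene on the other side, AT1G25360, was 3 genes away, at 8.48 in the enhancer trap, 18.5 in the wild type, and 12.2 and 12.9 in the knockout. IDD16, an indeterminate-domain gene 13 genes before CES, was also highest in the enhancer trap, at 17.5 against 8.35 in the wild type and 10.4 and 11.5 in the knockout, which is close to background. AT1G25275, AT1G25370, AT1G25375 and AT1G25390 were highest there too, and the remaining neighbours were not.

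Of the 10 neighbours 7 were tested. In the enhancer trap against the wild type 0 of them passed by limma, beside 4.29% of all tested probe sets, and 0 passed without the filter. The differences of the 7 ran from -0.51 to 0.35 and had a median of 0.10 beside -0.01 over all tested probe sets. Of the 3 untested, fitted without the filter, IDD16 was at 0.98 (adjusted p = 0.746 by limma), AT1G25360 at -1.04 (adjusted p = 0.704) and AT1G25240 at -0.33 (adjusted p = 0.991). In the knockout against the wild type 0 passed as well, beside 0.183% of all, with a median of -0.02. At an unadjusted p under 0.05 by limma there were 0 of the 7 in both comparisons. Of all tested probe sets there were 12.9% in the enhancer trap and 5.67% in the knockout. In the knockout against the enhancer trap 1 of the 7 passed, beside 5.99% of all, so the counts past the test do not set the neighbours apart. At an unadjusted p under 0.05 by limma there were 2 of the 7, AT1G25320 (0.49) and AT1G25400, beside 15.7% of all. The 1 that passed was AT1G25400, 9 genes from CES. AT1G25400 read 132.6 and 159.1 in the knockout arrays, 91.2 in the enhancer trap and 114.9 in the wild type. It was higher in the knockout by 0.67 (SE 0.203, adjusted p = 0.0373 by limma), a call lost without the filter (adjusted p = 0.204). The genes immediately after CES, MYB116 and OVA9, have no probe set with 1 listed gene and are not analysed here.

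**Figure D3:**
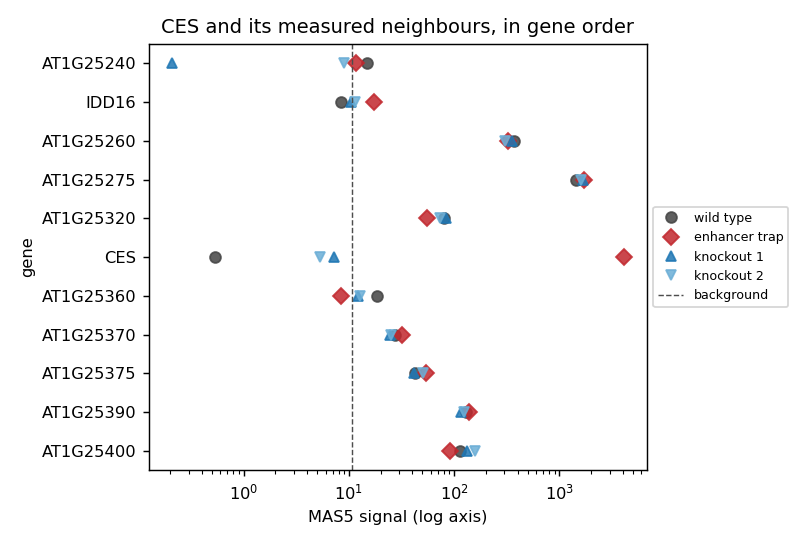
MAS5 signal (log axis) of CES and its 5 nearest measured genes on each side, listed in gene order, with a symbol for each of the 4 arrays and background (10.6) as a dashed line. CES alone among the 11 genes has its enhancer-trap symbol far from the others, and the neighbour AT1G25320 reads 55.3 there against 73.4 to 82.9.

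Other bHLH genes gave no comparable change. Of 41 genes that the gene table or the list of relatives names as bHLH, 10 were measured by a probe set with 1 gene, CES among them. The closest relatives BEE1, BEE2, BEE3 and HBI1 were not among these and are not analysed here. The untested members AT1G22490 and BHLH101 were lowest in the enhancer trap. AT1G22490 read 13.3 there, 26.1 in the wild type, and 26.2 and 20.8 in the knockout arrays. BHLH101 read 10.55, 16.2, and 10.63 and 16.9 in the same order. BPEp (BIGPETAL), a bHLH gene of petal growth, read 15.6 in the enhancer trap, 6.17 in the wild type, and 4.07 and 2.55 in the knockout arrays. It was above background on the enhancer-trap array only, as CES was, but under the signal filter, and fitted without it the difference from the wild type was 1.21 (SE 0.818, adjusted p = 0.733 by limma).

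BIM1, a bHLH partner of the brassinosteroid factor BES1, read 176.1 in the enhancer trap, 112.4 in the wild type, and 142.3 and 119.9 in the knockout arrays, a difference of 0.64 from the wild type (SE 0.227, adjusted p = 0.117 by limma). Most of the remaining members regulate iron uptake. ILR3 and bHLH104, of this kind, read 422 and 190.5 in the enhancer trap and 438 and 212.8 in the wild type. bHLH115 read 297.7 and 255.1 on these arrays, and bHLH34 read 35.2 and 59.8. bHLH121, a further iron regulator, read 150.4 in the enhancer trap, 204.4 in the wild type, and 212.6 and 237.9 in the knockout.

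Of the 9 bHLH genes other than CES 6 were tested. Against the wild type 4.29% of all tested probe sets passed in the enhancer trap and 0.183% in the knockout. In both comparisons 0 of these bHLH genes passed by limma, also without the filter or the intensity trend and with log2(signal + 16). At an unadjusted p under 0.05 there were 3 in the enhancer trap against the wild type, BIM1 at the positive difference given above and bHLH34 (-0.75) and bHLH121 (-0.44) below the wild type, where 12.9% of all tested probe sets had such a p, and 0 in the knockout against the wild type. In the knockout against the enhancer trap bHLH121 alone passed, higher in the knockout by 0.58 (SE 0.179, adjusted p = 0.0419 by limma), a call lost without the filter (adjusted p = 0.174). In that comparison 5.99% of all tested probe sets passed, so these counts do not set the bHLH genes apart. The median difference of the 6 was -0.11 in the enhancer trap against the wild type and 0.02 in the knockout against the wild type, beside -0.01 and -0.01 over all tested probe sets.

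**Figure D4:**
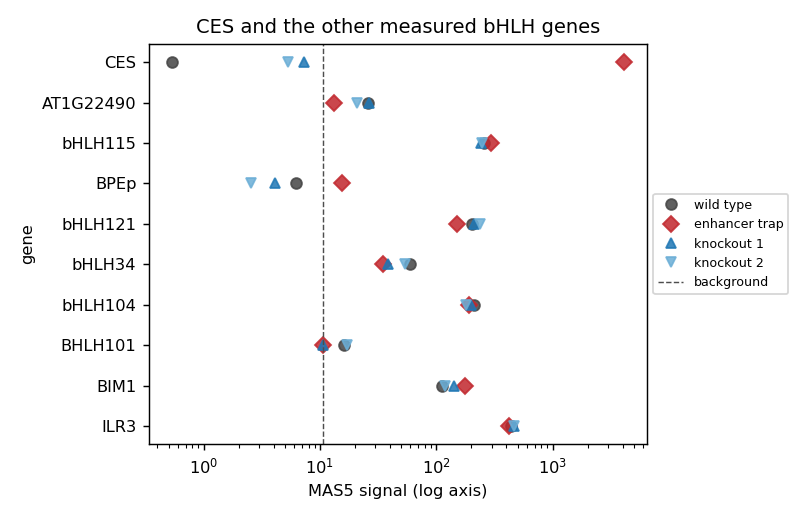
MAS5 signal (log axis) of CES and the 9 other measured bHLH genes on each of the 4 arrays, with background (10.6) as a dashed line. The 4 symbols of each other gene lie close together compared with the range of CES, and BPEp is above background on the enhancer-trap array only.

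Genes of the brassinosteroid pathway were few on the array as annotated. Of 15 synthesis genes 1 was measured, CPI1, a cyclopropyl isomerase of sterol synthesis. It read 177.8 in the enhancer trap, 199.4 in the wild type, and 151.3 and 183.5 in the knockout, and passed in 0 comparisons. Of 6 inactivation genes BAT1, an acyltransferase gene, was measured at 120.3, 135.5, 132.9 and 139.3 in the same order and passed in 0, and at an unadjusted p under 0.05 there were 0 for both genes by limma. CPD and DWF4, the synthesis genes most often read with CES, are not analysed here. Of 3 brassinosteroid growth genes the expansin gene EXPA8 was measured, and it was lowest where CES was highest, at 144.9 in the enhancer trap against 420.6 in the wild type and 302.1 and 239.9 in the knockout. Its log2 difference from the wild type in the enhancer trap was -1.53 (SE 0.202, adjusted p = 4.58e-07 by limma). Of 10 cold genes 3 were measured. COR15B, a chloroplast protein gene of the cold response, rose by 1.52 in the same comparison (SE 0.270, adjusted p = 0.000132 by limma), and the dehydrin gene COR47 was at 0.57 (adjusted p = 0.0553), which passed with quantile normalization (adjusted p = 0.0145). COR47 also passed with a 60th percentile filter. It did not pass with log2(signal + 16), median centring, no filter, no intensity trend, or the wild type and knockout as 1 group. COR15A is described below with the tested genes most like CES.

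Likeness to CES was measured as the log2 signal in the enhancer trap minus the highest of the other 3 arrays, and the 10 tested genes with the largest value are named. Since that value chose them, they are described without a test. CES had a likeness of 8.96 as read, or at least 8.47 with the readings under background raised to 10.6, and the largest of any other tested gene was 2.95, for COR15A, a chloroplast protein gene of cold acclimation. Over all 22746 probe sets that are not controls, the largest other value was 4.37. It belonged to AT1G58025, described above and untested. AT1G14930 and AT1G53080, also untested, were likewise more like CES than COR15A was. The 10 genes are therefore the most like CES among tested genes only. COR15A read 204.3 in the enhancer trap, 18.1 in the wild type, and 25.6 and 18.8 in the knockout arrays. AT5G62360 read 772.1 in the enhancer trap and 101.1 to 123.1 elsewhere, and P1R1 read 336.2 and 83.1 to 83.6. AT2G26690 (NPF6.2), of the NRT1/PTR transporter family, read 841.3 and 212.3 to 278.1.

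Unlike CES, these genes had signal above background on every array. The filter largely fixes this contrast in advance. Of the 5542 probe sets dark in the wild type and both knockout arrays, it let in CES alone. The other 6 were AT4G33720, AT1G30760, AT4G19430, AT5G27220, AT1G75960 and AT3G12710, with signals of 76.9 to 394 in the enhancer trap, and the likeness of the 10 ran down to 1.59. AT4G19430 differed from the rest in its knockout readings, 16.7 and 20.8 against 47.7 in the wild type. A further 10 tested probe sets without a single listed gene were as much like CES as these. Of the 13648 tested probe sets 65 were higher in the enhancer trap than in each other array by at least 1 on the log2 scale, or 0.476%. The same count was 3 for the wild type, 1 for knockout replicate 1 and 4 for knockout replicate 2.

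**Figure D5:**
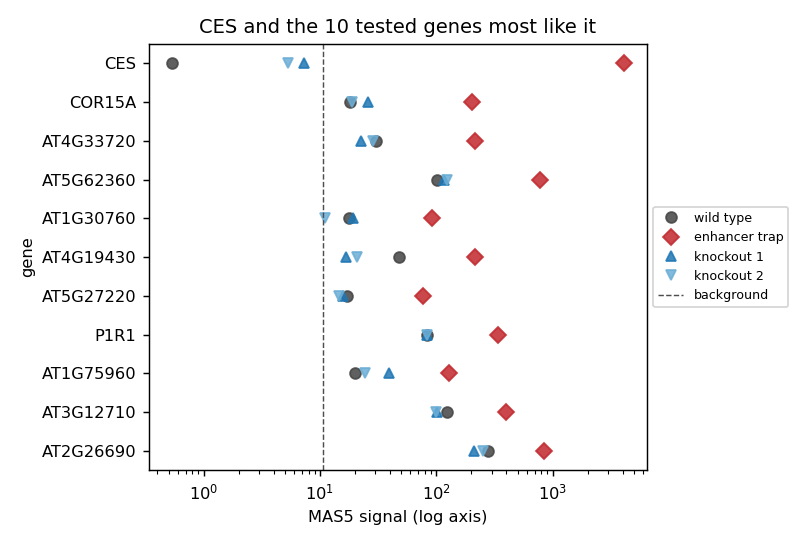
MAS5 signal (log axis) of CES and of the 10 tested genes whose pattern is most like it, in order of likeness, with a symbol for each of the 4 arrays and background (10.6) as a dashed line. The 10 genes lie above background on every array, whereas CES lies below it on 3, and their likeness is 1.59 to 2.95 against at least 8.47 for CES. Only tested genes could enter, and the signal filter let in no other probe set dark on those 3 arrays.

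Signs of RNA integrity were read from control genes. The GAPDH 3'/5' signal ratio of the enhancer-trap array was 1.38 in one control pair, below the 1.70 to 2.01 of the others, and 1.06 in the other pair, above their 0.897 to 0.963. The actin ratio was 2.55, within the 2.04 to 3.12 of the others. Their part in the results was not tested.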

How the data were processed

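The deposited values are linear signal intensities for each probe set. Per the submitters' processing notes, the authors used MAS5 and GCOS, whose versions are not given in the sources used here. Each array, as the values show, had a mean of 100.01 after trimming 2% at each end. The number of arrays limits the precision. CES, its lists and the tests were chosen with earlier results of these data known.

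The tests leave out the 64 control probe sets. Signals were taken as log2(signal + 1), which shrinks the log2 differences of dim genes. Readings at background can still differ widely on this scale, as those of CES in the knockout and the wild type did. Probe sets at or above the 40th percentile of mean log2 signal were kept. One limma 3.58.1 model (R 4.3.3) with 3 group means and an intensity trend was fitted to all 4 arrays, with 1 residual and 41.8 prior degrees of freedom. The tests were two-sided, with Benjamini-Hochberg adjustment over all 13648 tested probe sets, and a probe set passed where the adjusted p was under 0.05. On simulated data of 13648 genes with 200 changed, log2 changes of 1 were recovered in 64.0% for the enhancer trap against the wild type, 86.5% for the knockout against the wild type and 86.0% for the knockout against the enhancer trap. The simulated noise was normal, with the spread of the fitted trend on all 4 arrays. These shares therefore check the fit where its model holds, and do not give the power of this design.

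The platform annotation pairs 13513 probe sets with 1 gene and 503 with several, and does not list 8730. Of the first, 13436 matched the gene table of TAIR10.1. The bHLH genes were found by symbol and synonym in that table, with the list of CES relatives and BIM1. Named genes are CES, members of the lists, the 5 nearest measured neighbours on each side, the 10 tested genes most like CES, the 5 brightest named probe sets dark in the other 3 arrays, and bHLH genes past a test. Where several probe sets measure a gene, the one of highest mean is used. BPEp and the other untested bHLH genes are given because they are measured members. No 2 arrays shared an identical value for any probe set. Figures were drawn with matplotlib 3.10.9. Alternatives covered the pseudocount, normalization, filter, trend, the grouping of arrays, each knockout array and the background level.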

Additional observations from a re-analysis of the deposited data

How the results depend on the processing

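CES in the enhancer trap against the wild type and in the knockout against the enhancer trap stayed past the test under each alternative that could test it. The difference from the wild type ranged from 7.97 with log2(signal + 16) to 11.55 with quantile normalization. At the 60th percentile filter CES is not tested. In the knockout against the wild type it was no longer past the test at 0.43 with log2(signal + 16), 2.28 with median centring and 2.24 without the filter. Leaving out each knockout array in turn gave 2.05 to 2.44 against the wild type and -9.34 to -8.96 against the enhancer trap, with no residual degree of freedom and so no test. The bound of 388-fold against the wild type was 661-fold with the 95th percentile of the Bacillus controls, a level that CES in knockout replicate 1 exceeds and that gives no bound there. Against knockout replicates 1 and 2 singly it was 565-fold and 573-fold, with the higher of the array's brightest control and its own CES reading as the level. The rank of CES in the wild type was 21668 with controls left out.

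Counts of all probe sets past the test moved more. With median centring, without the filter and without the intensity trend they were 316, 153 and 205 in the enhancer trap against the wild type (586 as reported), 511, 231 and 335 in the knockout against the enhancer trap (817), and 2, 0 and 2 in the knockout against the wild type (25). The 0 comes with 1211 at an unadjusted p under 0.05 by limma, and the 2 with median centring are 1 higher and 1 lower, against 17 and 8. The prior degrees of freedom were 10.7, 6.58 and 7.63 under these settings against 41.8. The higher share was 47.4% in the enhancer trap against the wild type, and 27.5% without the filter and 30.2% without the trend. In the knockout against the enhancer trap it was 54.2%, and 70.6% without the filter. In the knockout against the enhancer trap, the 1 bHLH gene past the test became 0 without the filter and 0 without the trend. Of the values for other named genes, 21 lost and 3 gained a call, and 0 called values changed sign. No paired analysis was possible because the groups share only replicate number 1.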

Other observations

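The 9 probe sets that were dark in the wild type and both knockout arrays and read above 25.9 in the enhancer trap were set beside their chromosomes, a look chosen after their values were seen. Of the 8 with 1 listed gene, 7 lie on chromosome 1, CES among them. The others there are AT1G14930, AT1G48800, AT1G51990, AT1G53080, AT1G58025 and AT1G75300, and AT2G29170 lies on chromosome 2. Chromosome 1 holds 24.6% of the 3975 probe sets with 1 gene that were dark in those 3 arrays, and 30.3% of the 132 of them that left background in the enhancer trap at any level.

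The reverse pattern lay elsewhere. Among probe sets more than 4 times above background in the wild type and both knockout arrays, 12 were at or under background in the enhancer trap, and in each other array taken in the same way there were 0. Of the 8 of these with 1 listed gene, 5 lie on chromosome 4, which holds 14.9% of the probe sets with 1 gene that were that bright in the 3 arrays. AT4G20480 read 144.7 in the wild type, 132.2 and 133.7 in the knockout arrays and 0.438 in the enhancer trap. IAA29, an auxin-response repressor gene on the same chromosome, read 66.0, 100.1, 93.0 and 9.24 in the same order. Both counts rest on 1 enhancer-trap array, and the line and the single array cannot be told apart.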
